A study of Mus musculus with 12 samples.

Results

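The genes described here encode the receptors for the constant part of IgG and IgE antibodies and the chains through which they signal, 8 of the 39666 genes in the deposited count table. They were chosen by symbol, as Fcgr1, Fcgr2b, Fcgr3, Fcgr4, Fcer1g, Fcer1a, Ms4a2 and Fcer2a. No cut on their values was used, though earlier results of these data were known. RNA was sequenced from eosinophils of the airway lumen of wild-type C57BL/6 mice with an allergic inflammation to ovalbumin. The mice, aged 8 to 12 weeks, were sensitized on days 0 and 7 with 20 µg ovalbumin in 4 mg alum, inhaled 1% ovalbumin for 40 minutes a day on days 16 to 18, and were killed on day 19. Pooled lavage fluid was sorted for side-scatter-high cells positive for CD45, CD11b and Siglec-F with low to middle CD11c and Ly6G, and 6 lavages were each split into TREM-1+ eosinophils and TREM-1- eosinophils, hence 12 libraries. TREM-1 is an activating receptor of myeloid cells, so the comparison asks which transcripts differ between eosinophils with and without it at the surface of cells that share mice, allergen and lavage.

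Fc receptors let a cell respond to antigen that antibody has bound. The activating IgG receptors and the high-affinity IgE receptor have little signalling sequence of their own. They rely on the Fc receptor gamma chain, product of Fcer1g, whose cytoplasmic tail carries an immunoreceptor tyrosine-based activation motif (ITAM) that Src-family kinases phosphorylate and that then recruits the kinase SYK. FcγRIIB, product of Fcgr2b, carries the opposite signal, since its inhibitory motif (ITIM) recruits the phosphatase SHIP1, product of Inpp5d. Mouse eosinophils are known to carry low-affinity IgG receptors, whereas the complete high-affinity IgE receptor is in mice a feature of mast cells and basophils.

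The coding stretches of the inhibitory and activating tails are shown first, from GENCODE vM21 transcripts. Capitals mark each tyrosine codon that has a leucine codon 3 places after it, together with that leucine codon. Fcgr2b (chromosome 1) has a single such pair in its tail, with the tyrosine at codon 319 of 340, and Fcer1g (chromosome 1) has 2 in a row, at codons 65 and 76 of 86. Tyrobp (chromosome 7), shown for comparison, encodes DAP12, the ITAM adaptor through which TREM-1 signals, and has them at codons 92 and 103 of 114. In their whole coding sequences, with isoleucine accepted in place of leucine, Fcgr3, Fcgr4 and Fcer2a hold 0 such motifs, Fcgr1 holds 1 at codon 319 and Fcer1a 1 at codon 200, Ms4a2 holds 3, of which those at codons 173 and 183 are spaced like an ITAM, and Fcer1g holds 1 more at codon 43.
Fcgr2b: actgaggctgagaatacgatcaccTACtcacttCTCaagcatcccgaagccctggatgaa
Fcer1g: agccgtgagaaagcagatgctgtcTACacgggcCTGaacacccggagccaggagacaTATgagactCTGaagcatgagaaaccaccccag
Tyrobp: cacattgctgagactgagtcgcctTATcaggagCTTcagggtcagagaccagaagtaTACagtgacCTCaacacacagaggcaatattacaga

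The extracellular parts of FcγRIIB and FcγRIII are close copies, and this bears on how their reads were counted. Over 784 aligned coding bases, Fcgr2b and Fcgr3 were identical at 658 (83.9%), against 63.5% for the next closest pair, Fcgr2b and Fcgr4. Their longest identical coding run is 129 bases, at coding positions 278 to 406 in Fcgr2b and 263 to 391 in Fcgr3, and is longer than the 100-base reads. Of 1733 distinct stretches of 31 bases in Fcgr3 transcripts, 233 (13.4%) also occur in Fcgr2b and in no other gene. Fcgr1, Fcer1g and Fcer1a share 0 such stretches with any other gene.
Fcgr2b and Fcgr3, shared run: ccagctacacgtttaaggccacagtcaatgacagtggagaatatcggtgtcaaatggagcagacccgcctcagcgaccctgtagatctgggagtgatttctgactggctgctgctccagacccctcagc

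The promoters of the 2 members called below, and of the interferon-inducible Fcgr1 and Fcgr4, are given as the 250 bases before and 50 bases after the RefSeq start (GRCm38.p6, Fcgr4 on the plus strand and the others on the minus strand). Both strands were searched for the GAS motif TTCNNNGAA, the interferon-stimulated response element (GAAA, any 2 bases, GAAA) and the PU.1 core GAGGAA, and matches are in capitals. The Fcgr2b window holds none of the 3. The Fcgr3 window, at the more upstream of its listed starts, holds a PU.1 core at -6 (reverse strand), and the Fcgr1 window holds a GAS motif at -109 and a PU.1 core at -55 (reverse strand). The Fcgr4 window holds the response element at -73 and a PU.1 core at -22 (reverse strand). Of 32544 RefSeq promoter windows of the same length, 8.33% hold the GAS motif, 3.45% the response element and 28.1% the PU.1 core.
Fcgr2b promoter, chr1:170976022-170976321: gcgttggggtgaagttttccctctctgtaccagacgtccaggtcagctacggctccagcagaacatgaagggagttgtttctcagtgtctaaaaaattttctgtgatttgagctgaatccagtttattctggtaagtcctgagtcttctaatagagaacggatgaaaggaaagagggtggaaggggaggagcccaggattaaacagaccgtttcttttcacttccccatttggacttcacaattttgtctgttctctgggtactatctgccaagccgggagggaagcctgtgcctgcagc
Fcgr3 promoter, chr1:171059354-171059653: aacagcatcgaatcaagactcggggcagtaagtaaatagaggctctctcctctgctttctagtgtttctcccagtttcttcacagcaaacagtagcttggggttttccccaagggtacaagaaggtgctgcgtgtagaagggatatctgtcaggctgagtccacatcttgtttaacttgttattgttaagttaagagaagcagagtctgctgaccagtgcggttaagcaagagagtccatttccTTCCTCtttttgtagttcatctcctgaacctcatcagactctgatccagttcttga
Fcgr1 promoter, chr3:96293920-96294219: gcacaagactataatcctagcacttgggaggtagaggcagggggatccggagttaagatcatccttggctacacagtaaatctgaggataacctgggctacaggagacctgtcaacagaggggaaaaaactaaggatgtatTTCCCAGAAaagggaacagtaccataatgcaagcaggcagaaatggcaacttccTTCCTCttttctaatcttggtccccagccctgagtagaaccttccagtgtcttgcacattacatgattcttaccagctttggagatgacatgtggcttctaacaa
Fcgr4 promoter, chr1:171018676-171018975: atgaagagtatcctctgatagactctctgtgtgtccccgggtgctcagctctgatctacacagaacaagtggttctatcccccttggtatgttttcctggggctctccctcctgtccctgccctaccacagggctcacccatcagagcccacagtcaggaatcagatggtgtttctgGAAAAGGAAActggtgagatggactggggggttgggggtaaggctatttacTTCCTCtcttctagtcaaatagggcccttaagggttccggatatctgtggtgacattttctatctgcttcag

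TREM-1+ libraries held between 8626701 (lavage 4) and 19274912 counts in total, and TREM-1- libraries between 16513387 and 21234053. Trem1 itself, the check of the sort, lay between 73.5 and 130.7 CPM (counts scaled to a common library size) in TREM-1+ and between 18.4 and 42.1 CPM in TREM-1- libraries, without overlap. Of 9 tested eosinophil markers 2 were called higher in TREM-1+ and 6 lower: Prg2, for one, averaged 622.8 CPM in TREM-1+, and 490.2 in TREM-1- libraries, and Ccr3 816.0 and 984.6. The split depends on scaling. With libraries scaled by their totals alone, Prg2 and Alox15 stayed called higher and Ccr3 and Il1rl1 lower. Siglecf (-0.007 on the log2 scale), Il5ra (-0.028), Cebpe (0.017) and Adgre1 (-0.035) were then not called. Of 18302 genes that passed the filter on low counts, edgeR called 1797 (9.82%) at a threshold of 0.05 after Benjamini-Hochberg adjustment, with 568 (3.10%) higher in TREM-1+ and 1229 (6.72%) lower. The TREM-1+ and TREM-1- libraries of lavages 1 and 2 were far more alike between the lavages than any other pair, and since no label states that each lavage had its own mice, the p-values cover only the variation among these pools. As the libraries are bulk RNA, fewer cells of a type and less RNA per cell cannot be told apart.

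Set per kilobase of the longest annotated transcript, the 3 most abundant members were Fcgr3, Fcer1g and Fcgr2b, in that order in each of the 12 libraries. Fcgr3 averaged 510.0 ± 94.8 CPM per kilobase in TREM-1+ and 580.1 ± 104 in TREM-1- eosinophils (SD, n = 6 each). Fcer1g, the shared gamma chain, came next with 346.0 and 354.3 CPM per kilobase, and the inhibitory Fcgr2b with 65.7 and 76.1. The activating IgG receptor transcript was thus well above the inhibitory one per length in both fractions, though the size of the gap depends on the length used: with the median transcript length Fcgr2b averaged 159.2 and 184.4 CPM per kilobase.

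**Figure D1:**
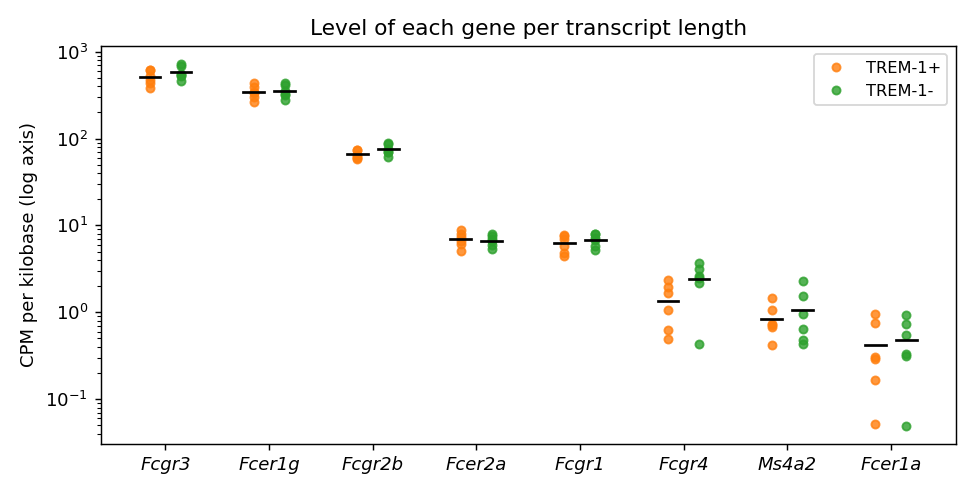
Level of each gene in CPM per kilobase of longest transcript (log axis), one point per library, with TREM-1+ left of TREM-1- and a line at each group's mean. Fcgr3, Fcer1g and Fcgr2b stand above the other 5 genes in all 12 libraries.

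The other 5 members were sparse. Fcer2a, which encodes the low-affinity IgE receptor CD23, averaged 6.95 CPM per kilobase in TREM-1+ and 6.70 in TREM-1- eosinophils. Fcgr1, the high-affinity IgG receptor, averaged 6.21 and 6.85 CPM per kilobase, and it stood above Fcer2a in 6 of 12 libraries, so their order is not settled. Fcgr4 followed with 1.36 and 2.42 CPM per kilobase, then Ms4a2 with 0.840 and 1.05, and Fcer1a with 0.420 and 0.481. The ranges of these last 3 overlapped, and Fcgr4 and Ms4a2 change places with the median transcript length.

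Of the 8 members, 7 passed the low-count filter and were tested, and 2 of the 7 were called, both lower in TREM-1+, against 9.82% of all tested genes called and 6.72% called lower. Their median log2 fold change was -0.17, beside 0.00 over all tested genes. The called members were Fcgr3 and Fcgr2b, the activating and the inhibitory low-affinity IgG receptor, and both were lower in TREM-1+ in 6 of 6 lavages.

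Among the activating receptors, Fcgr3 encodes FcγRIII, the low-affinity receptor for IgG immune complexes. From lavage 1 to lavage 6 it had 826.9, 832.2, 590.6, 516.5, 711.7 and 644.0 CPM in TREM-1+ libraries, against 972.5, 932.9, 700.4, 619.7, 742.1 and 720.6 CPM in their TREM-1- partners. The ranges overlapped, with lavages 1 and 2 high and lavage 4 low in both fractions, but each TREM-1+ library lay under its own partner. The means were 687.0 ± 128 CPM in TREM-1+, and 781.4 ± 140 in TREM-1- eosinophils (SD, n = 6 each). The log2 fold change was -0.19 ± 0.03 (SE, adjusted p = 7.98e-05 by edgeR), a difference of -12.2%. Flipping the signs of the 6 paired differences in an exact two-sided permutation test gave p = 0.0312, the lowest value possible with 6 pairs.

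Fcgr2b, the inhibitory receptor, had 263.9, 264.7, 211.8, 207.9, 217.0 and 231.7 CPM in the TREM-1+ libraries of lavages 1 to 6, against 310.9, 317.5, 271.4, 249.5, 219.5 and 248.9 CPM in the TREM-1- libraries. The groups overlapped here too, and the paired gap was widest in lavage 3, at -0.36 on the log2 scale, and nearly closed in lavage 5, at -0.02. Fcgr2b averaged 232.8 ± 25.7 CPM in TREM-1+, and 269.6 ± 38.3 in TREM-1- eosinophils (SD, n = 6 each). Its log2 fold change was -0.21 ± 0.04 (SE, adjusted p = 2.82e-04 by edgeR), a difference of -13.3%, and the exact sign-flip p was 0.0312. With the counts of Fcgr2b and Fcgr3 summed to a single row, since their reads may have been shared out between them, the log2 fold change was -0.19 ± 0.03 (SE, adjusted p = 5.25e-05 by edgeR).

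Both calls rest on how libraries were scaled. The TMM scaling factors lay between 1.01 and 1.13 in TREM-1+ and between 0.922 and 1.01 in TREM-1- libraries. With library totals alone, which put the median over all genes at 0.13 on the log2 scale, Fcgr3 was at -0.060 (edgeR adjusted p = 0.374) and Fcgr2b at -0.079 (edgeR adjusted p = 0.289), neither called. The same setting turns the split of all calls to 1880 higher and 376 lower, against 568 higher and 1229 lower with TMM factors.

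**Figure D2:**
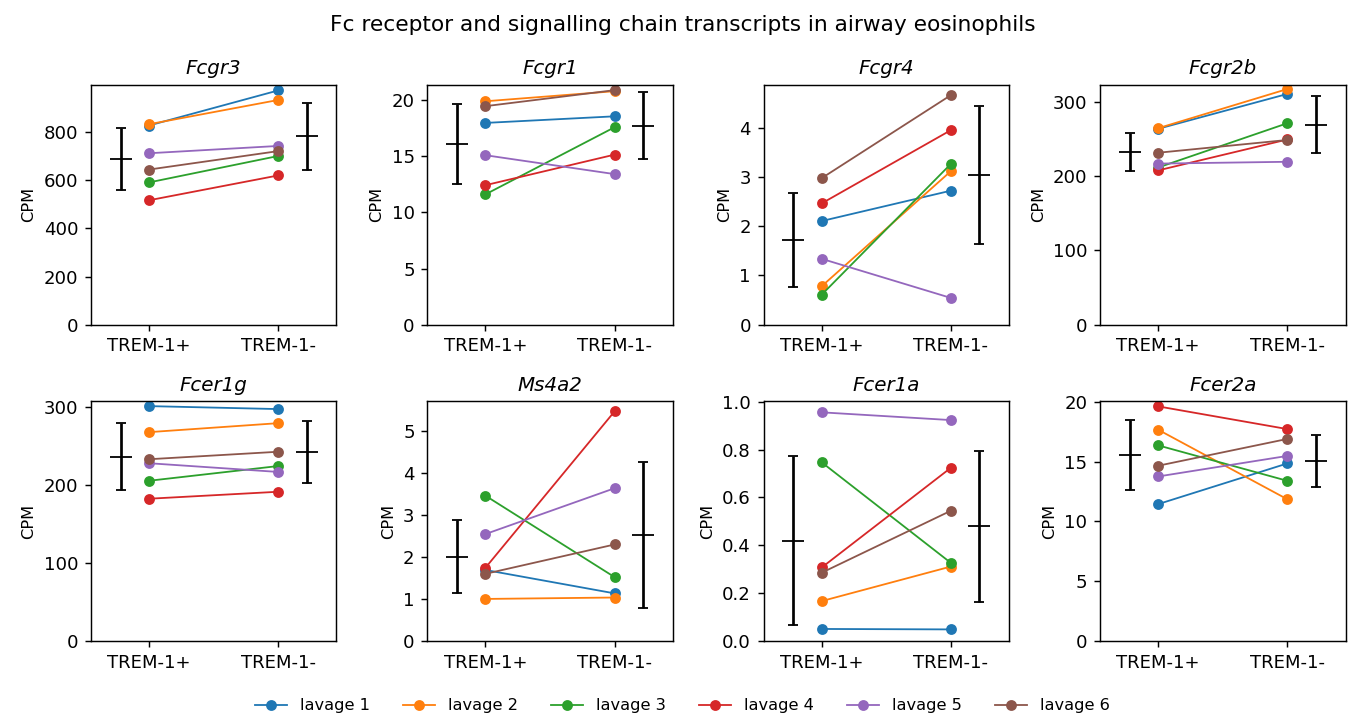
CPM of each gene in the TREM-1+ (left) and TREM-1- (right) library of each lavage, joined by a line per lavage, with the group mean and SD as bars beside the points. Fcgr3 and Fcgr2b are lower in the TREM-1+ library in 6 of 6 lavages, while the lines of Fcer2a and Fcer1a cross.

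The other activating IgG receptors were not called. Fcgr1 had a lowest, median and highest value of 11.6, 16.5 and 19.9 CPM in TREM-1+ libraries, against 13.4, 18.1 and 20.9 CPM in TREM-1- libraries. It was lower in TREM-1+ in 5 of 6 lavages, the exception being lavage 5, with a log2 fold change of -0.15 ± 0.10 (SE, adjusted p = 0.479 by edgeR) and an interval of -0.34 to 0.05. Fcgr4, an IgG receptor of intermediate affinity found on monocytes, macrophages and neutrophils, had 161 counts over the 6 TREM-1+ libraries and 322 over the 6 TREM-1- libraries. Its levels were 0.611, 1.72 and 2.98 CPM at the lowest, median and highest in TREM-1+, against 0.543, 3.19 and 4.66 CPM in TREM-1-.

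The groups overlapped for Fcgr4, and in lavage 5 the TREM-1- library was the lowest of all 12 and the paired difference was 1.21 on the log2 scale. In the other 5 lavages Fcgr4 was lower in TREM-1+, by as much as -2.31 in lavage 3. The log2 fold change was -0.81 ± 0.33 (SE, adjusted p = 0.147 by edgeR), with an unadjusted p of 0.0215 and an interval of -1.46 to -0.17. That interval comes from the SE of the fit and does not show the spread of the pairs. The paired differences averaged -0.78 ± 1.25 (SD), with an exact sign-flip p of 0.219. It passed the threshold in 2 other settings. These were -1.11 (edgeR adjusted p = 0.0155) without lavage 5, the only lavage that went the other way, and -0.81 (edgeR adjusted p = 0.0435) with no filter on low counts.

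The gamma chain was not called. Fcer1g had 301.1, 267.8, 205.5, 182.5, 228.0 and 233.1 CPM in the TREM-1+ libraries of lavages 1 to 6, against 297.3, 279.3, 224.4, 191.5, 216.8 and 242.7 CPM in the TREM-1- libraries. It was higher in TREM-1+ in lavages 1 and 5 and lower in the other 4. The log2 fold change was -0.04 ± 0.04 (SE, adjusted p = 0.657 by edgeR), with an interval of -0.11 to 0.03, and it was 0.09 (edgeR adjusted p = 0.206) with library totals alone, so that its direction turns with the scaling. Of the variance of Fcer1g, 97.3% lay between lavages and 0.674% between fractions. For Fcgr3 the shares were 84.9% and 13.3%, and for Fcgr2b 63.9% and 27.8%.

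**Figure D3:**
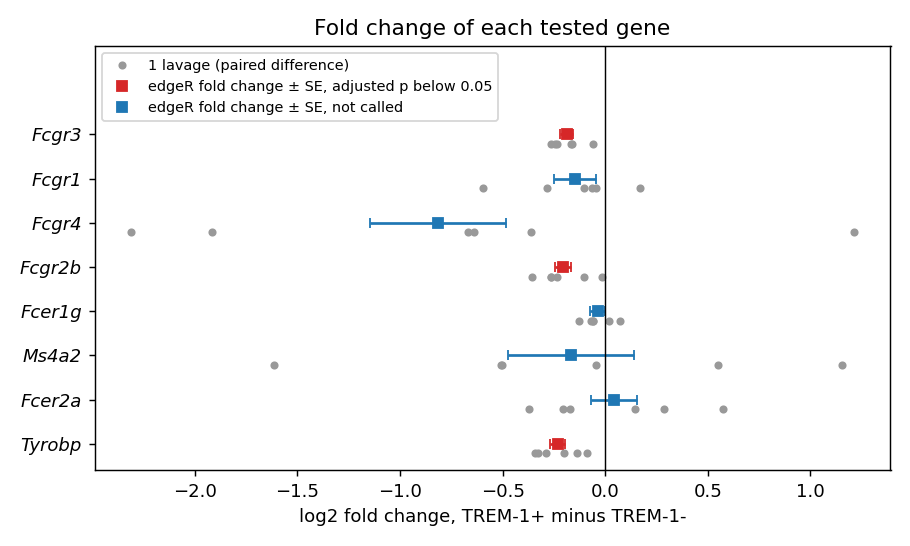
Log2 fold change of the 7 tested genes and of Tyrobp, TREM-1+ minus TREM-1-, with the edgeR value and its SE as a square and bar and the paired difference of each lavage as a grey point. The 6 lavages of Fcgr3, Fcgr2b and Tyrobp lie left of 0, and those of Fcgr4 and Ms4a2 spread widely.

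The other chains of the high-affinity IgE receptor were close to the limit of detection. Fcer1a, the IgE-binding alpha chain, had 1, 3, 11, 3, 15 and 5 counts in the TREM-1+ libraries of lavages 1 to 6, against 1, 6, 6, 11, 17 and 9 counts in the TREM-1- libraries, and failed the filter. Ms4a2, the signal-amplifying beta chain, had 33, 18, 51, 17, 40 and 28 counts in TREM-1+, against 23, 20, 28, 83, 67 and 38 in TREM-1-. The log2 fold change of Ms4a2 was -0.17 ± 0.31 (SE, adjusted p = 0.851 by edgeR), with an interval of -0.77 to 0.43. Its paired differences ran from -1.61 to 1.15 on the log2 scale. The part of depth in this spread was not tested.

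Among markers of the cells that carry the complete IgE receptor, the protease genes were likewise scarce, but not all markers were. Kit, Slc18a2 and Hdc averaged 46.6, 41.8 and 32.1 CPM in TREM-1+, and 38.1, 42.1 and 30.4 in TREM-1- libraries. Of 15 basophil and mast cell markers, 7 were at 0 in all 12 libraries, among them the tryptase genes Tpsb2 and Tpsab1 and the mast cell protease Mcpt4. Of the 6 that could be tested, Kit was called higher in TREM-1+ (0.30 on the log2 scale) and Cd200r3 (-0.81) and Gata2 (-0.68) lower, each in 6 of 6 lavages, with Cd200r3 at 6.57 CPM in TREM-1+ libraries, against 11.6 in TREM-1-. Over all tested genes 9.82% were called. The basophil protease Mcpt8 averaged 0.575 CPM in TREM-1+ libraries and 0.278 in TREM-1- libraries, and Cpa3 0.756 and 0.673. The summed level of the list ran from 135.9 to 146.1 CPM in TREM-1+, and from 120.9 to 183.0 in TREM-1-, and most of it came from Kit, Slc18a2 and Hdc. The part of these cells in the levels of Fcer1a and Ms4a2 was not tested.

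Fcer2a, known above all from B cells, where CD23 binds IgE, was not called either. Its lowest, median and highest values were 11.4, 15.5 and 19.6 CPM in TREM-1+ libraries, against 11.9, 15.2 and 17.7 CPM in TREM-1- libraries. Fcer2a was higher in TREM-1+ in 3 of 6 lavages, with a log2 fold change of 0.04 ± 0.11 (SE, adjusted p = 0.902 by edgeR) and an interval of -0.18 to 0.26. The B cell genes Ms4a1 and Pax5, which failed the filter, averaged 0.475 and 0.503 CPM in TREM-1+, and 0.271 and 0.321 in TREM-1- libraries. The more abundant Ebf1 and Cd79a averaged 13.7 and 10.3 CPM in TREM-1+, and 13.1 and 10.8 in TREM-1- libraries. Of 5 tested B cell markers, 0 were called, beside 9.82% of all tested genes. Of 12 listed B cell markers, 10 are in the deposited counts. Their summed level ran from 24.5 to 44.3 CPM in TREM-1+, and from 26.1 to 41.5 in TREM-1-.

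Because a ratio of counts within a library does not depend on scaling, 6 ratios were compared, all between members except that of Fcer1g to Tyrobp. Each had an exact two-sided permutation test that flips the signs of the 6 pairs, with Benjamini-Hochberg adjustment over the 6 ratios. The inhibitory to activating ratio, Fcgr2b over Fcgr3, averaged 0.344 ± 0.037 in TREM-1+ and 0.349 ± 0.040 in TREM-1- libraries (SD, n = 6 each). It was higher in TREM-1+ in 2 of 6 lavages, with a mean log2 difference of -0.02 ± 0.07 (SD, exact permutation p = 0.531, adjusted p = 0.637) and a range over lavages of -0.11 to 0.06. Fcgr2b over the sum of Fcgr1, Fcgr3 and Fcgr4 gave -0.02 ± 0.07 (SD) as well. The ratios of Fcgr4 and of Fcgr1 to Fcgr3 differed by -0.60 ± 1.24 and 0.03 ± 0.21 (SD), with exact permutation p = 0.281 and 0.75.

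Both ratios with the gamma chain on top were higher in TREM-1+ in every lavage. Fcer1g over the sum of Fcgr1, Fcgr3 and Fcgr4 was 0.336 ± 0.018 in TREM-1+ and 0.302 ± 0.014 in TREM-1- libraries (SD, n = 6 each) and was higher in TREM-1+ in 6 of 6 lavages, by 0.10 to 0.25 on the log2 scale. The mean log2 difference was 0.15 ± 0.06 (SD, exact permutation p = 0.0312, adjusted p = 0.0938). Fcer1g over Tyrobp, the 2 ITAM adaptors against each other, was 0.561 ± 0.046 in TREM-1+ and 0.491 ± 0.047 in TREM-1- libraries and was higher in TREM-1+ in 6 of 6 lavages. Its mean log2 difference was 0.19 ± 0.07 (SD, exact permutation p = 0.0312, adjusted p = 0.0938). The unadjusted p is the smallest that 6 pairs allow, and neither ratio passed after adjustment over the 6 ratios. With only these ratios at that smallest p, the adjusted p was bound to stay above 0.05, whatever the size of the difference.

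**Figure D4:**
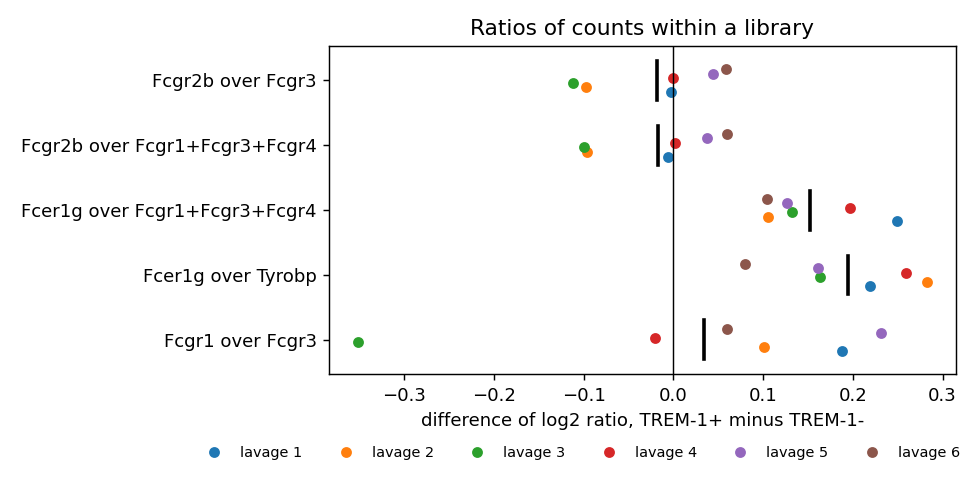
Difference of the log2 ratio of counts, TREM-1+ minus TREM-1-, with a point per lavage and a line at the mean. All 6 lavages lie right of 0 for the ratios of Fcer1g to the activating IgG receptors and to Tyrobp, while those of Fcgr2b over Fcgr3 lie on both sides; the ratio of Fcgr4 to Fcgr3, which spans -2.11 to 1.32, is not drawn.

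Across the 12 libraries the gene whose log2 CPM followed that of Fcgr3 most closely, among 10967 genes of at least 5 CPM, was Eloa (Pearson r = 0.989), then Camk1 (r = 0.989) and Tyrobp (r = 0.986). For Fcgr2b they were Ankrd44 (r = 0.947), Syk (r = 0.943) and Stk40 (r = 0.942), and for Fcer1g Csf2rb (r = 0.984), Adora3 (r = 0.983) and Adipor1 (r = 0.982). Fcgr1 was most like Hbp1 (r = 0.925) and Fcer2a most like Zfp932 (r = 0.861). These values describe 12 libraries that share lavages in pairs. Between members, Fcgr3 and Fcer1g had r = 0.916 and Fcgr3 and Fcgr2b r = 0.829 over the 12 libraries, and Fcgr3 and Fcer2a r = -0.60.

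Downstream of the receptors, 3 of 50 tested genes of activating Fc receptor signalling rose and 18 fell in TREM-1+ (median log2 fold change -0.08). Over all tested genes 3.10% rose and 6.72% fell. When only genes of at least 5 CPM were tested, 1896 of 10957 were called, and 21 of 47 in this list. With library totals alone the split of the list turned to 10 higher and 6 lower. SYK, the kinase that binds the phosphorylated ITAM, was encoded by a transcript at 1149 ± 83.4 CPM in TREM-1+, and 1244 ± 105 in TREM-1- eosinophils, a log2 fold change of -0.11 ± 0.03 (SE, adjusted p = 0.00776 by edgeR) that was 0.014 (edgeR adjusted p = 0.862) with library totals alone. The Src-family kinase Lyn fell by 0.29 on the log2 scale, at 369.3 CPM in TREM-1+ against 451.5 CPM in TREM-1-. Vav3, a guanine nucleotide exchange factor, fell by 0.41, Itpr1, an intracellular calcium channel, by 0.47, and Arpc2, a subunit of the actin-nucleating ARP2/3 complex, by 0.20. Lyn, Vav3 and Itpr1 were also called with library totals alone, and Arpc2 was not (edgeR adjusted p = 0.305). The genes that rose were the phospholipase Plcg1 (0.54 ± 0.13), the adaptor Grap2 (0.79 ± 0.22) and the kinase Fgr (0.11 ± 0.03), which was no longer called on leaving out lavage 1, 3, 4, 5 or 6 (edgeR adjusted p up to 0.173).

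Plcg1 and Grap2 are also genes of T cells, and 4 of 9 tested T and NK cell markers were called higher in TREM-1+, beside 3.10% of all tested genes. Of 14 listed T and NK cell markers, 11 are in the deposited counts. Their summed level ran from 7.93 to 85.2 CPM in TREM-1+, and from 6.55 to 47.2 in TREM-1-, and was higher in TREM-1+ in 6 of 6 lavages. Without lavage 4 Grap2 was no longer called (0.60, edgeR adjusted p = 0.166), and without lavages 3 and 4 neither was Plcg1 (0.42, edgeR adjusted p = 0.0874). The part of these cells in the result was not tested.

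Of 25 tested genes listed under inhibitory Fc receptor signalling, 4 rose and 10 fell in TREM-1+ (median log2 fold change -0.12), beside 3.10% and 6.72% of all tested genes. With library totals alone 7 were higher and 3 lower. Lyn stands in this list and in the activating one and is counted in both, and the listed phosphatases Ptprc and Ptprj are not inhibitory alone. Inpp5d, the SHIP1 phosphatase that FcγRIIB recruits, averaged 617.3 ± 34.6 CPM in TREM-1+, and 732.0 ± 55.9 in TREM-1- eosinophils, a log2 fold change of -0.24 ± 0.03 (SE, adjusted p = 1.16e-06 by edgeR), which library totals alone reduced to -0.12 (edgeR adjusted p = 0.0684). The adaptors Dok2 and Dok3 fell by 0.35 and 0.25, and Ptprc, the CD45 phosphatase, by 0.17. Dok2 stayed called with library totals alone, while Dok3 (edgeR adjusted p = 0.0841) and Ptprc (edgeR adjusted p = 0.506) did not. Pag1, a membrane adaptor that recruits the Src-inhibiting kinase CSK, rose by 0.44 ± 0.04 on the log2 scale. The ubiquitin ligases Cbl and Cblb rose by 0.13 and 0.21 and the phosphatase Ptprj by 0.24. Of these, Cbl was no longer called without lavage 3, Ptprj without lavage 3 or 6, and Cblb without lavage 1, 2, 4, 5 or 6 (edgeR adjusted p from 0.0651 to 0.166). Ptpn6, the SHP-1 phosphatase, was not called (-0.06 ± 0.03).

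**Figure D5:**
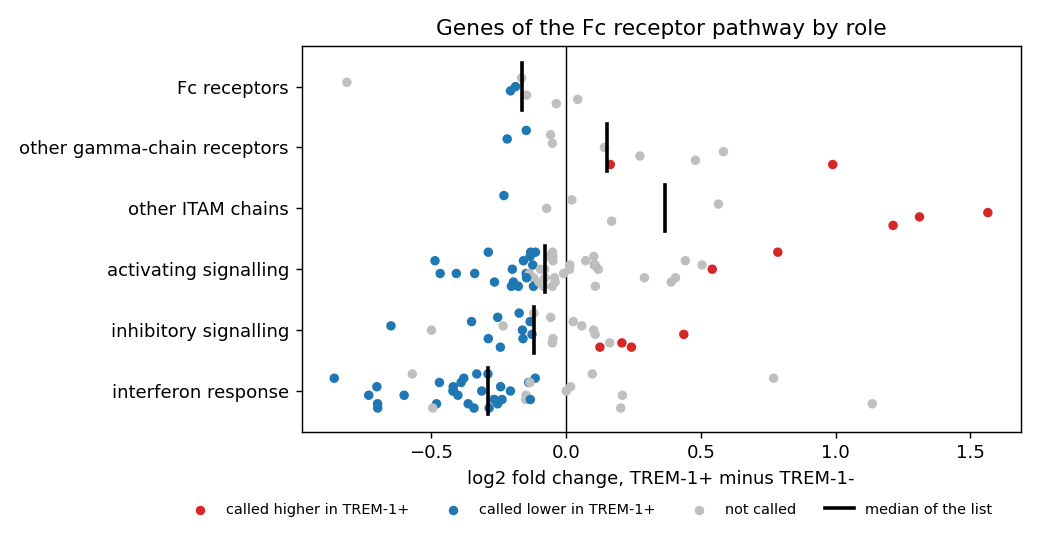
Log2 fold change, TREM-1+ minus TREM-1-, of each tested gene in the receptor set and in 5 pathway lists, with called genes in colour and a line at each list's median. The interferon response lies furthest to the left, with a median of -0.29. The list of other ITAM chains, which also holds the non-ITAM adaptor Hcst, lies furthest to the right, with a median of 0.37.

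Other receptors that pair with the gamma chain moved both ways. Of 10 tested, 2 rose, 2 fell and 6 were not called, beside 9.82% of all tested genes called. Tarm1, an activating receptor of myeloid cells, averaged 37.2 ± 11.7 CPM in TREM-1+, and 18.9 ± 6.93 in TREM-1- eosinophils, a log2 fold change of 0.99 ± 0.08 (SE, adjusted p = 3.28e-11 by edgeR), and was higher in 6 of 6 lavages. Cd300c2 rose by 0.16 ± 0.05, but was no longer called when any single lavage was left out (edgeR adjusted p up to 0.121). The paired immunoglobulin-like receptors Lilra6 and Pira2 fell by 0.22 and 0.15 and were not called with library totals alone (edgeR adjusted p = 0.180 and 0.816). Their family holds near-identical copies, so the counts of each are uncertain.

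Among 8 other signalling chains, most of them ITAM-bearing, 3 rose and 1 fell, beside 9.82% of all tested genes called. The list also holds Hcst, an adaptor without an ITAM, which was not called (0.02 ± 0.09). Tyrobp, the DAP12 chain, averaged 427.8 ± 104 CPM in TREM-1+, and 502.3 ± 127 in TREM-1- eosinophils, a log2 fold change of -0.23 ± 0.04 (SE, adjusted p = 1.58e-05 by edgeR) that became -0.10 (edgeR adjusted p = 0.110) with library totals alone. The chains that rose were the T cell receptor subunits Cd3e (1.31 ± 0.20), Cd247 (1.21 ± 0.26) and Cd3g (1.56 ± 0.40), at 7.45, 5.54 and 2.86 CPM in TREM-1+, and 3.18, 2.31 and 0.827 in TREM-1-, beside the T and NK cell markers above. Without lavage 3 Cd3g was no longer called (1.11, edgeR adjusted p = 0.157).

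Of 9 other tested Fc receptors and Fc-binding proteins, 2 fell and the other 7 were not called, beside 9.82% of all tested genes called. Trim21, the cytosolic antibody receptor, fell by 0.28 ± 0.06 and Lgals3, the IgE-binding galectin-3, by 0.21 ± 0.04, and neither was called with library totals alone (edgeR adjusted p = 0.134 and 0.232). Fcrlb averaged 2.26 CPM in TREM-1+, and 2.23 in TREM-1-. Of 10 antibody genes listed, only 1 is in the deposited counts, so the others were not measured here. It is Jchain, the joining chain, which was tested and not called (1.37 CPM in TREM-1+, and 1.18 in TREM-1-).

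Fcgr1 and Fcgr4 are known to be inducible by interferon gamma, and the interferon response genes are given beside them. Of 41 tested, 28 fell in TREM-1+ and the other 13 were not called, beside 6.72% of all tested genes called lower. The list's median was -0.29. With library totals alone 18 were lower and 1 higher. Rsad2, the antiviral protein viperin, averaged 305.9 CPM in TREM-1+, and 544.2 in TREM-1- eosinophils, a log2 fold change of -0.86 ± 0.04 (SE, adjusted p = 6.20e-13 by edgeR). Oasl1, Cmpk2, Ifi47 and Usp18 fell by 0.73, 0.70, 0.70 and 0.60. The list's median paired difference was -0.33, -0.31, -0.28, -0.39, -0.21 and -0.35 in lavages 1 to 6. That of Fcgr1 was -0.05, -0.06, -0.60, -0.28, 0.17 and -0.10, and that of Fcgr4 -0.36, -1.92, -2.31, -0.67, 1.21 and -0.64. Both receptors were thus lowest against their partners in lavage 3 and the interferon list in lavage 4, while lavage 5 had the highest value of all 3. Lavage 5 was also where Tyrobp (-0.09) and the medians of the activating (-0.018) and inhibitory (-0.023) signalling lists were nearest to 0.

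Markers of macrophages and neutrophils, which carry Fc receptors, moved with the fractions as well. The calls below stand beside 3.10% of all tested genes called higher and 6.72% called lower. The summed level of 10 alveolar macrophage markers ran from 408.4 to 951.9 CPM in TREM-1+, and from 237.1 to 708.7 in TREM-1-, and was higher in TREM-1+ in 6 of 6 lavages, with 4 of 6 tested genes called higher. Most of that sum was Car4, at 318.0 CPM in TREM-1+, and 201.1 in TREM-1-, and Chil3, at 305.1 and 150.8, of which Car4 was called. Of the others, Atp6v0d2 averaged 6.70 and 3.11 CPM, Mrc1 12.2 and 5.75, and Marco 0.148 and 0.055. Of 8 tested neutrophil markers 7 were called higher and 1 lower, and their sum, from 1332 to 2225 CPM in TREM-1+, and from 1545 to 2297 in TREM-1-, was higher in TREM-1+ in 1 of 6 lavages. Most of that sum was Retnlg, the marker called lower, at 1244 CPM in TREM-1+, and 1603 in TREM-1-, whereas S100a9 averaged 97.5 and 37.3 CPM and Ngp 46.8 and 25.4. Dendritic cell markers summed to between 98.1 and 138.2 CPM in TREM-1+, and between 71.6 and 102.4 in TREM-1-, and were higher in 6 of 6. Itgae made up most of this sum, at 83.2 CPM in TREM-1+, and 57.2 in TREM-1-. Of 8 tested dendritic cell markers 2 were called, Itgae and H2-Ab1, both higher. The complement genes C1qa, C1qb and C1qc of interstitial macrophages averaged 0.215, 1.03 and 0.358 CPM in TREM-1+, and 0.212, 0.172 and 0.158 in TREM-1-. The part of these cells in the levels of Fcgr3, Fcgr2b, Fcgr1 and Fcgr4 was not tested.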

How the data were processed

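Per the labels' protocols, stranded libraries of sorted airway eosinophil RNA, depleted of ribosomal RNA, were sequenced on 1 flow cell lane with 100-base reads from both ends. The authors deposited an estimated count per gene and library, held as whole numbers, and a table of log2 CPM values for 17934 genes, which TMM-scaled counts with a prior count of 1 gave back to within 5e-09. The submitters' processing notes list GRCm39 as the build and, as tools, edgeR 3.42.4, kallisto 0.45.0 and R 4.3.0. The annotation, the use of strand and the division of shared reads are not given in the sources used here. All library columns were used.

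The test was edgeR's robust quasi-likelihood F test (edgeR 4.0.16, R 4.3.3), with lavage as a block, TMM scaling and filterByExpr set to at least 10 counts and 15 in total, coded TREM-1+ minus TREM-1-, with Benjamini-Hochberg adjustment over 18302 genes and calls at 0.05. The count test was tested on simulated data. CPM are TMM-scaled, paired differences use log2 CPM with a prior count of 1, and ratios add 0.5 to each count. Intervals are 95% and are set from the edgeR SE under a normal distribution. DESeq2 1.42.0 and limma 3.58.1 were alternatives. Members and lists were chosen with earlier results of these data known. From each list the text names up to 5 called genes per direction with the smallest adjusted p, and for each member of at least 5 CPM the genes most correlated with it; Syk, Ptpn6 and Fcrlb were named after their values were seen. A called gene that this rule takes is not reported here.

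Pairing is stated in the series' design text: a number marks 1 lavage split into both fractions. Deviations from group means correlated within pairs at 0.127 to 0.502, and 5 of 6 TREM-1+ libraries were most like their own partner, the exception being lavage 3. Transcript lengths and coding sequences came from GENCODE vM21, which holds 28314 of the table's genes (71.4%), and promoters from RefSeq GRCm38.p6, so coordinates are not in the authors' build. In that annotation Fcgr2b overlaps the antisense gene Gm38204, and reads of the pair may not be separated.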

Additional observations from a re-analysis of the deposited data

How the results depend on the processing

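The lower levels of Fcgr2b and Fcgr3 in TREM-1+ stayed called with DESeq2, limma-voom, DESeq2 size factors, both other filters, each lavage left out (Fcgr2b -0.24 to -0.18, Fcgr3 -0.21 to -0.17), lavages 1 and 2 alone, lavages 3 to 6 alone, without lavages 3 and 4, and with lavages 1 and 2 summed. With library totals alone, 0 members were called, with Fcgr2b at -0.079 and Fcgr3 at -0.060. Without the replicate block, which ignores the pairing by lavage, 83 genes were called over the whole table, against 1797 with it, and 0 members, with Fcgr2b at -0.21 (edgeR adjusted p = 0.712) and Fcgr3 at -0.19 (edgeR adjusted p = 0.885); of 32 other named genes 3 stayed called. Fcgr4 became called with no filter on low counts (-0.81) and without lavage 5, and its value ran from -1.11 to -0.56 over the lavages left out. Lavages 3 to 6 alone gave 1168 calls over all genes. The cause of these changes was not tested. Of the 1797 called genes, 64 changed direction with library totals alone and 10 with lavages 1 and 2 alone; the 32 other named genes kept theirs in every setting that gave a value, and Syk is among the 64. The values of Fcgr4, Ms4a2 and Fcer1a rest on few counts per library, and their paired log2 differences had SDs of 1.25, 0.96 and 0.79. The part of depth in that spread was not tested.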
